A study of Homo sapiens with 30 samples.

Results

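Integrins are cell-surface receptors built from 1 alpha and 1 beta chain, and laminins, collagens and fibronectin are among the matrix proteins that they bind. The genes of these families were described across 5 dose groups of an androgen experiment. Members were the rows of the deposited LNCaP count table whose gene ID maps to a symbol of an integrin alpha or beta chain, a laminin chain or a collagen chain, together with FN1, THBS1, SPARC and LUM. The rule used names and no measured values. It found 81 of 37843 genes: 41 collagen chains, 16 alpha integrins, 12 laminin chains, 8 beta integrins and the 4 other matrix proteins.

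LNCaP is an androgen-sensitive prostate carcinoma line that was established from a metastasis in a lymph node. Wells were seeded with 130000 cells in RPMI with 8% charcoal-stripped serum, and 48 h later received vehicle or R1881, a synthetic androgen, for 24 h. The groups were vehicle and R1881 at 0.03, 0.06, 0.1 and 10 nM, and each held 3 libraries numbered 2, 3 and 4. The series asks how gene programmes differ between low and high androgen doses; all groups share the same line, serum and time, and the labels do not say that the libraries came from separate cultures, so p-values measure only the spread between these libraries.

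In epithelia, laminins form a sheet-like polymer under the cells and collagen IV a second network beneath it, joined by linker proteins into a basement membrane. Fibril-forming collagens such as types I, III and V are best known from the stroma. The normal prostate epithelium rests on a laminin-rich membrane that basal cells hold through the integrin of the ITGA6 and ITGB4 chains, and prostate carcinoma cells commonly lose ITGB4.

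Total counts per library ran between 30666460 and 61199483. Levels are given as CPM, the count scaled to library total and TMM factor, and they are not corrected for gene length unless stated. The 5 libraries numbered 3, 1 in each group, stood apart from the rest on principal component 3, which carried 5.86% of the variance. Their share of counts from mitochondrial genes was 9.31% to 10.7%, and that of the other libraries was 6.14% to 7.69%. Luminal prostate markers summed to 15900 to 16600 CPM at 10 nM and 6220 to 6620 CPM in vehicle, with all 11 above 1 CPM in both. Fibroblast and smooth muscle markers summed to 13 to 15.5 CPM at 10 nM and 10.2 to 10.8 CPM in vehicle. The smooth muscle actin gene ACTA2 held 8.03 CPM at 10 nM against 3.27 CPM in vehicle. TAGLN (3.95 against 4.13 CPM), PDGFRB (0.257 against 0.783 CPM) and S100A4 (0.629 against 1 CPM) were lower in mean, and FBN1 (1.42 against 1.2 CPM) was higher. No other gene of this list had a group mean above 0.161 CPM. Endothelial and leukocyte markers summed to 5.28 to 8.2 CPM at 10 nM and 16.9 to 20.2 CPM in vehicle, and only VWF reached 1 CPM (6.42 against 18.7 CPM). Of the fibroblast list THY1, FAP and CNN1 were at 0 CPM in mean at 10 nM. The 4 basal markers in the table summed to 0.888 to 0.959 CPM at 10 nM and 0.178 to 0.392 CPM in vehicle. The part of other cell types in the results was not tested. In bulk libraries such as these, fewer cells of a type and less RNA per cell cannot be told apart.

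At 10 nM against vehicle 14 of 24 tested collagen chains fell and 4 rose, 7 of 17 tested integrin chains fell and 4 rose, and 3 of 9 tested laminin chains fell and 3 rose. Of the 81 members 53 passed the filter on low counts and were tested, and 28 did not; the highest group mean among those 28 was 0.391 CPM, and 21 of them stayed under 0.1 CPM in every group. By edgeR's quasi-likelihood test (adjusted p under 0.05 over 18403 genes), 38 of the 53 tested members were called at 10 nM against vehicle, 12 higher and 26 lower. That is 71.7% of them, against 57.6% of all tested genes. The lower calls made up 49.1% of tested members against 28.3% of all genes, and the higher calls 22.6% against 29.3%. The median log2 fold change was -0.39 over the tested members and -0.0134 over all genes. At least 2-fold differences were called in 7 members higher and 21 lower, against 6.15% and 10.6% of all genes. Scaling by library totals alone moved the median of all genes to -0.223 and gave 9 members higher and 34 lower. The share of all genes called under that scaling is not given here. A member could pass the filter through 1 high group alone, so these counts describe the measured members and not all 81.

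The number of called members grew with dose. At 0.03 nM 11 were called, 5 higher and 6 lower (20.8% of tested members against 8.63% of all genes, of which 5.47% were higher and 3.16% lower). With the replicate number as a block the count was 20, 6 higher and 14 lower. The count at this dose fell to 6 without vehicle replicate 2, 6 without vehicle replicate 3, 4 without vehicle replicate 4, 5 without 0.03 nM replicate 3 and 7 without 10 nM replicate 4. At 0.06 nM 21 were called, 9 higher and 12 lower (39.6% against 31.2% of all genes, 16.9% higher and 14.3% lower). At 0.1 nM 31 were called, 10 higher and 21 lower (58.5% against 42.1% of all genes, 21.5% higher and 20.6% lower). Between 10 nM and 0.06 nM 35 were called, 9 higher and 26 lower (66% against 45.3% of all genes, 22.7% higher and 22.6% lower). The 4 comparisons with vehicle share its 3 libraries, so their calls are not independent. Group means rose at every dose step in 7 tested members, fell at every step in 16 and did neither in 30. This count was not made over all genes, so it describes the members alone. Members called in opposite directions at 0.06 nM against vehicle and at 10 nM against 0.06 nM were FN1, THBS1 and LAMB4, 3 of 53, against 6.3% of all genes; both comparisons use the same 0.06 nM libraries. With the replicate block there were 6, and 2 without vehicle replicate 2 or 0.06 nM replicate 2 or 4.

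**Figure D1:**
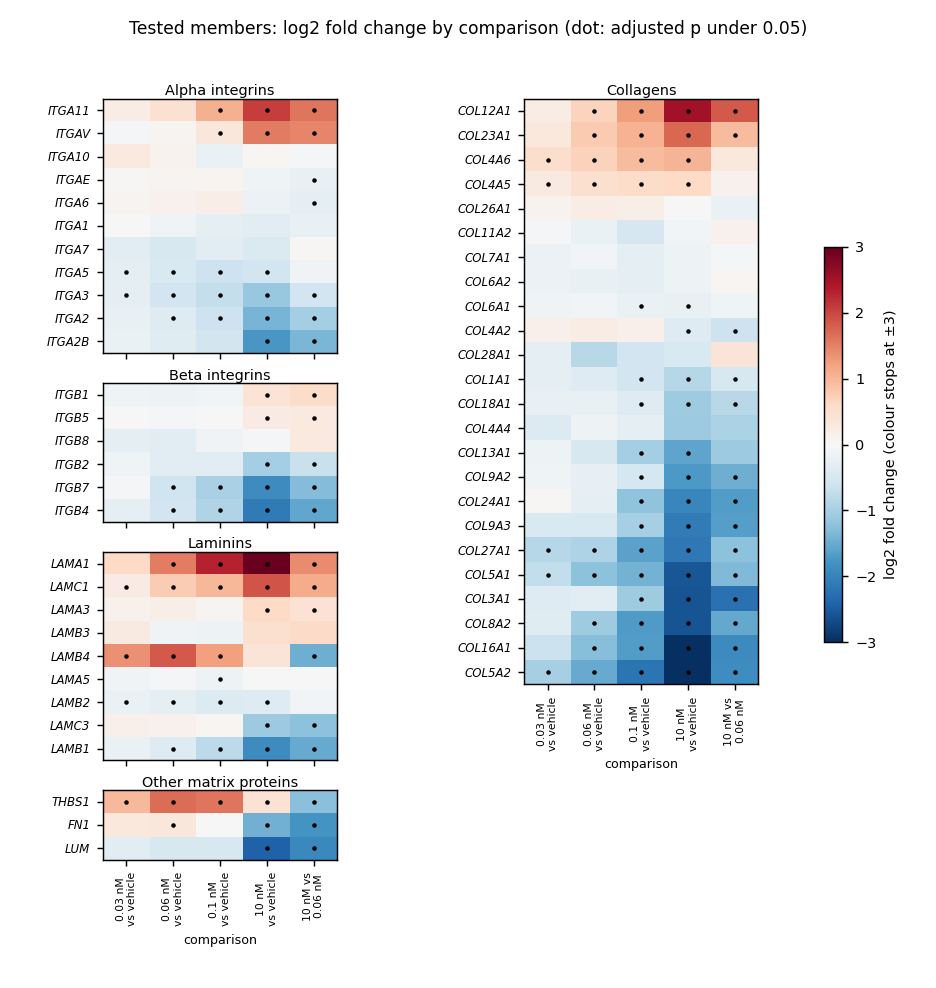
Log2 fold change of the 53 tested members (rows, by family) in the 5 comparisons (columns), with red for higher and blue for lower in the first-named dose and a dot where the edgeR adjusted p was under 0.05; the colour stops at 3 on either side. Of the 24 tested collagen chains 14 were lower and 4 higher at 10 nM against vehicle, where 28.3% of all genes were lower and 29.3% higher. THBS1, FN1 and LAMB4 have dots with opposite colours at 0.06 nM against vehicle and at 10 nM against 0.06 nM. Other members change sign between these columns without a dot in both.

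Among the integrin chains, ITGAV, ITGB1, ITGB5 and ITGA11 rose at 10 nM, while ITGA2, ITGA3, ITGA5, ITGA2B, ITGB4, ITGB2 and ITGB7 fell. Of the 11 tested alpha chains 2 rose, 4 fell and 5 were not called, and of the 6 tested beta chains 2 rose, 3 fell and 1 (ITGB8) was not called. Of all genes 57.6% were called in this comparison, 29.3% higher and 28.3% lower, and the 54.5% of alpha chains called lie near that share. Per kilobase of exon sequence, ITGB1 was the most abundant integrin transcript at both ends of the dose range, with 100.4 CPM per kb at 10 nM and 76.1 CPM per kb in vehicle. ITGAV came next at 43.7 CPM per kb at 10 nM and 14.8 CPM per kb in vehicle.

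ITGAV encodes the alpha chain shared by receptors for vitronectin and fibronectin (ENSG00000138448.12, chromosome 2, 186590065 to 186680901, plus strand, GRCh38). Its libraries held 313, 402 and 361 CPM at 10 nM, against 115, 120.5 and 129 CPM in vehicle. The groups did not overlap, and the difference was 2.95-fold (log2 1.56 ± 0.0824 SE, edgeR adjusted p = 2.01e-11). Most of it lay above 0.1 nM: group means were 116 CPM at 0.03 nM, 130 CPM at 0.06 nM and 153 CPM at 0.1 nM (log2 0.33 ± 0.0813, edgeR adjusted p = 0.00296 at 0.1 nM).

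ITGB1, the beta chain with the most alpha partners (ENSG00000150093.20, chromosome 10, 32900319 to 33005792, minus strand), was called higher at the top dose alone. It had 615, 554 and 642 CPM at 10 nM, against 470.1, 418 and 484 CPM in vehicle (log2 0.40 ± 0.07, edgeR adjusted p = 8.91e-05). The 10 nM libraries all lay above the vehicle ones, while the means at 0.03, 0.06 and 0.1 nM were 418, 412 and 429.7 CPM and were not called against vehicle. With the replicate block, ITGB1 was called lower at 0.03 nM (log2 -0.13, edgeR adjusted p = 0.0405). At 0.06 nM the difference was log2 -0.15 (edgeR adjusted p = 0.12). ITGB1 was called lower there with the replicate block, without the libraries numbered 3 and without vehicle replicate 3 (edgeR adjusted p down to 0.00917). Scaled by library totals alone, the 10 nM difference was log2 0.19 (edgeR adjusted p = 0.0595).

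ITGB5, which pairs with the ITGAV chain to bind vitronectin, had 52.7, 56.7 and 52.3 CPM at 10 nM and 44.5, 48.1 and 43.9 CPM in vehicle. These groups did not overlap either (log2 0.25 ± 0.0635, edgeR adjusted p = 0.00296), but by library totals alone the difference was log2 0.04 (edgeR adjusted p = 0.592). ITGA11, the alpha chain of a collagen receptor, was low throughout, with 0.791, 0.648 and 0.808 CPM at 10 nM against 0.164, 0.222 and 0.139 CPM in vehicle (log2 2.06 ± 0.36, edgeR adjusted p = 8.61e-05).

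The collagen- and laminin-binding alpha chains ITGA2 and ITGA3 fell stepwise. ITGA2, whose product with ITGB1 binds collagen and laminin (ENSG00000164171.11, chromosome 5, 52989326 to 53094779, plus strand), had group means of 17.3 CPM in vehicle, 14.9 at 0.03 nM, 13.3 at 0.06 nM, 11.3 at 0.1 nM and 6.62 CPM at 10 nM. Its libraries held 7.33, 6.05 and 6.46 CPM at 10 nM, against 16.9, 16 and 19.1 CPM in vehicle (log2 -1.39 ± 0.0938, edgeR adjusted p = 5.68e-10). ITGA2 was not called at 0.03 nM (log2 -0.22, edgeR adjusted p = 0.15), and was called there with the replicate block (edgeR adjusted p = 0.0246).

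ITGA3, the alpha chain of a receptor for epithelial laminins (ENSG00000005884.18, chromosome 17, 50055968 to 50090481, plus strand), had means of 20.4, 16.7, 13.8, 12.5 and 9.2 CPM along the same doses. At 10 nM its libraries held 9.2, 9.57 and 8.83 CPM, against 19.5, 21.4 and 20.2 CPM in vehicle (log2 -1.14 ± 0.0833, edgeR adjusted p = 1.71e-09). It was already lower at 0.03 nM (log2 -0.29, edgeR adjusted p = 0.0309), a call lost without vehicle replicate 3, vehicle replicate 4 or 0.03 nM replicate 4 (edgeR adjusted p up to 0.155 over all alternatives).

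ITGA5, whose product with ITGB1 is the classical fibronectin receptor, was called lower at every dose. Its means were 36.6 CPM in vehicle, 29.8 at 0.03 nM, 26.6 at 0.06 nM, 23.7 at 0.1 nM and 24.7 CPM at 10 nM. It was lower by log2 -0.30 ± 0.0638 at 0.03 nM (edgeR adjusted p = 0.00607) and by log2 -0.57 ± 0.0643 at 10 nM (edgeR adjusted p = 6.11e-07). Between 10 nM and 0.06 nM the difference was log2 -0.11 (95% interval -0.24 to 0.03, edgeR adjusted p = 0.204), and by library totals alone log2 -0.28 with a call (edgeR adjusted p = 0.00129).

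ITGB4, the partner of ITGA6 in hemidesmosomes (ENSG00000132470.14, chromosome 17, 75721328 to 75757818, plus strand), fell more than any other tested integrin chain. Its libraries held 1.42, 1.89 and 1.74 CPM at 10 nM, against 7.41, 7.11 and 7.78 CPM in vehicle (log2 -2.13 ± 0.141, edgeR adjusted p = 4.57e-10). Group means stepped down through 6.15 CPM at 0.03 nM, 5.02 CPM at 0.06 nM and 4.01 CPM at 0.1 nM, and every 10 nM library lay below every library of the lower doses.

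ITGA6, the laminin-binding partner of ITGB4 and ITGB1, was not called at 10 nM against vehicle. It had 40.8, 46.8 and 45.5 CPM in vehicle, 45.2, 53.7 and 46.7 CPM at 0.06 nM and 38.7, 42.5 and 37.3 CPM at 10 nM. The 10 nM and 0.06 nM libraries did not overlap (log2 -0.29 ± 0.082, edgeR adjusted p = 0.00688), whereas 10 nM and vehicle overlapped (log2 -0.17, 95% interval -0.34 to 0.01, edgeR adjusted p = 0.0929). At 0.1 nM ITGA6 was log2 0.20 above vehicle (edgeR adjusted p = 0.0546), and with the replicate block it was called higher there (edgeR adjusted p = 0.00184), as it was by DESeq2 and without vehicle, 0.03 nM, 0.06 nM or 10 nM replicate 3, 0.1 nM replicate 2 or 10 nM replicate 4. By library totals alone it was called lower at 10 nM against vehicle (log2 -0.38, edgeR adjusted p = 0.000121), as it was without vehicle replicate 2 or 10 nM replicate 3.

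The remaining integrin calls concerned chains best known from blood cells. ITGB7, ITGB2 and ITGA2B were low. ITGB7 had 0.501, 0.5 and 0.278 CPM at 10 nM against 1.64, 1.31 and 1.87 CPM in vehicle (log2 -1.89 ± 0.222, edgeR adjusted p = 9.27e-07). ITGB2 averaged 1.16 ± 0.0816 CPM at 10 nM and 2.32 ± 0.349 CPM in vehicle, and ITGA2B 0.209 ± 0.0812 CPM at 10 nM and 0.698 ± 0.263 CPM in vehicle (SD, n = 3 each). ITGAE, which pairs with ITGB7 to bind E-cadherin, was called only between 10 nM and 0.06 nM (22.7 ± 0.589 against 26.5 ± 0.55 CPM, SD, n = 3 each; log2 -0.22, edgeR adjusted p = 0.0258). That call was lost without 0.06 nM replicate 3 or 4 or 10 nM replicate 3 or 4 (edgeR adjusted p up to 0.0729). Exons of ITGB7 overlap ZNF740 and those of ITGAE overlap HASPIN on the opposite strand. The strand setting of the counting is not given in the sources used here, so reads of such pairs cannot be told apart; at 10 nM ZNF740 was lower by log2 -0.33 and HASPIN higher by log2 0.52.

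**Figure D2:**
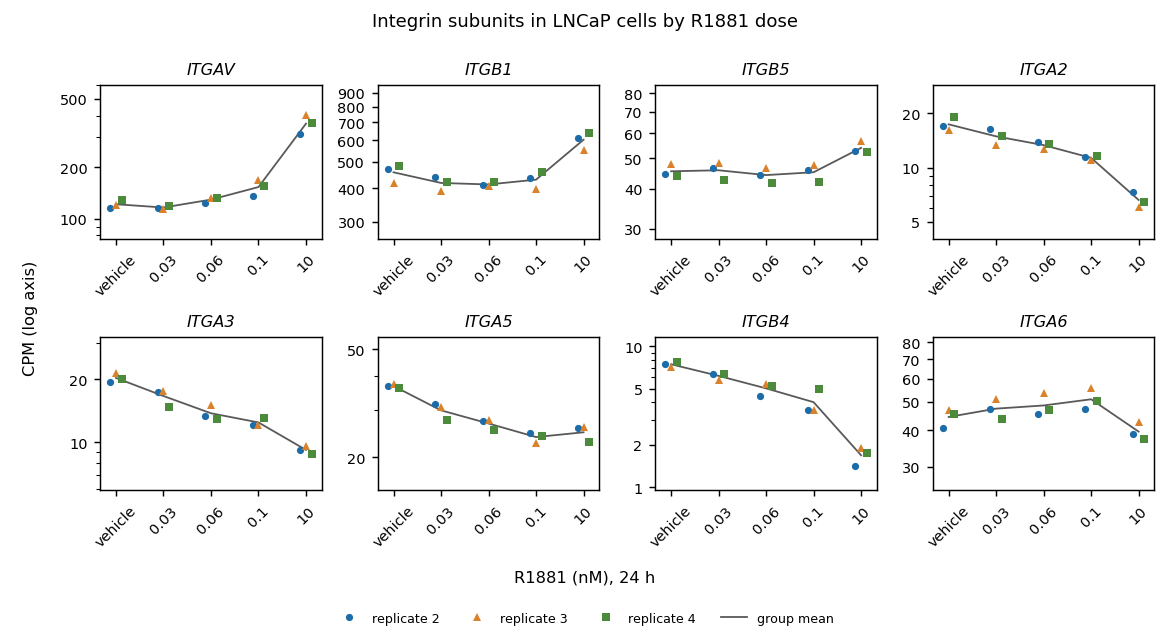
CPM (log axis) of 8 integrin chains by R1881 dose, 1 marker per library (shape and colour by replicate number) and a line through group means. ITGAV and ITGB1 sit highest at 10 nM, ITGA2, ITGA3 and ITGB4 step down with dose, and the ITGA5 means are 23.7 CPM at 0.1 nM and 24.7 CPM at 10 nM.

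At 10 nM the gamma chain LAMC1 and the alpha chains LAMA1 and LAMA3 rose, the beta chains LAMB1 and LAMB2 and the gamma chain LAMC3 fell, and LAMA5, LAMB3 and LAMB4 were not called at 10 nM against vehicle. Of the 9 tested laminin chains 3 rose and 3 fell, 33.3% each way, near the shares of all genes (29.3% higher and 28.3% lower). Per kilobase, LAMC1 held 114.8 CPM at 10 nM and 31 CPM in vehicle, and LAMB2 34.55 CPM per kb at 10 nM and 44.9 CPM per kb in vehicle.

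LAMC1 encodes the gamma-1 chain found in most laminin trimers (ENSG00000135862.6, chromosome 1, 183023460 to 183145592, plus strand). Its libraries held 992, 956 and 947 CPM at 10 nM, against 266, 253 and 263 CPM in vehicle, a 3.7-fold difference (log2 1.89 ± 0.0717, edgeR adjusted p = 2.16e-13). The rise was graded, with means of 308 CPM at 0.03 nM, 443 CPM at 0.06 nM and 522 CPM at 0.1 nM, and from 0.06 nM upwards no library overlapped vehicle. At 0.03 nM 1 library, replicate 4 with 264 CPM, lay within the vehicle range (log2 0.24 ± 0.0697, edgeR adjusted p = 0.0394). That call was lost without any 1 of 7 libraries: vehicle replicate 2, 3 or 4, 0.03 nM replicate 2 or 3, or 10 nM replicate 2 or 4.

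LAMA1, the alpha-1 chain best known from embryonic basement membranes (ENSG00000101680.15, chromosome 18, 6941744 to 7117814, minus strand), had the largest rise of all tested members. It held 11.3, 5.2 and 8.28 CPM at 10 nM, against 1.08, 0.866 and 1.22 CPM in vehicle (7.75-fold, log2 2.96 ± 0.278, edgeR adjusted p = 5.4e-08). Means climbed through 1.58 CPM at 0.03 nM, 3.03 CPM at 0.06 nM and 5.24 CPM at 0.1 nM. LAMA3, the alpha-3 chain of the epithelial anchoring laminin, had 260.5, 175 and 238 CPM at 10 nM against 155, 136 and 155 CPM in vehicle. Its means at the lower doses were 163 CPM at 0.03 nM, 167 CPM at 0.06 nM and 158 CPM at 0.1 nM, with no call, and at 10 nM it was 1.51-fold higher (log2 0.60 ± 0.133, edgeR adjusted p = 0.000869). At 0.06 nM against vehicle it was called higher with the replicate block (log2 0.16, edgeR adjusted p = 0.0201) and without the libraries numbered 3 (log2 0.22, edgeR adjusted p = 0.0292). At 10 nM against 0.06 nM, with overlapping libraries, the call (log2 0.43, edgeR adjusted p = 0.0137) was lost by library totals alone and without 0.06 nM replicate 3 or 10 nM replicate 2 or 4.

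LAMB1, the beta-1 chain (ENSG00000091136.15, chromosome 7, 107923799 to 108003255, minus strand), moved the opposite way to its usual partner LAMC1. Its libraries held 4.48, 3.89 and 3.15 CPM at 10 nM, against 16.4, 13.7 and 12.5 CPM in vehicle (log2 -1.88 ± 0.138, edgeR adjusted p = 1.78e-09). Means were 12.4 CPM at 0.03 nM, 10.9 CPM at 0.06 nM and 8.24 CPM at 0.1 nM. The call at 0.06 nM (log2 -0.38, edgeR adjusted p = 0.0289) was lost without vehicle replicate 2 or 0.06 nM replicate 3 or 4. At 0.03 nM the edgeR adjusted p was 0.404, and 0.047 with the replicate block. LAMB1 shares exon sequence with DLD on the opposite strand, which was at 212 CPM at 10 nM and 179 CPM in vehicle, higher by log2 0.24.

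LAMB2, the beta-2 chain, was called lower at every dose. It had 249.6, 219.5 and 243 CPM at 10 nM and 309, 293 and 322 CPM in vehicle (log2 -0.38 ± 0.0595, edgeR adjusted p = 2.92e-05). The mean at 0.06 nM was already 251 CPM, and the difference between 10 nM and 0.06 nM was log2 -0.08 (95% interval -0.21 to 0.04, edgeR adjusted p = 0.272), and by library totals alone log2 -0.26 with a call (edgeR adjusted p = 0.00468). Its call at 0.03 nM (log2 -0.20, edgeR adjusted p = 0.0411) was lost by library totals alone and without vehicle replicate 2 or 4, 0.03 nM replicate 3 or 4, 0.06 nM replicate 2 or 4, 0.1 nM replicate 2 or 4, or 10 nM replicate 4 (edgeR adjusted p up to 0.166). LAMA5, the most abundant alpha chain per kilobase with 15.5 CPM per kb at 10 nM and 15.7 in vehicle, differed by log2 -0.02 at 10 nM against vehicle (95% interval -0.15 to 0.11); by library totals alone the difference was log2 -0.23 and called (edgeR adjusted p = 0.0078).

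LAMB4, a less studied beta chain that neighbours LAMB1 on chromosome 7, peaked at 0.06 nM at a low level. It held 0.281, 0.178 and 0.139 CPM in vehicle, 0.519, 0.601 and 0.453 CPM at 0.03 nM, 0.734, 0.724 and 0.708 CPM at 0.06 nM, 0.586, 0.305 and 0.534 CPM at 0.1 nM and 0.264, 0.167 and 0.379 CPM at 10 nM. The 0.06 nM libraries lay above all others. LAMB4 was higher at 0.06 nM against vehicle (log2 1.85 ± 0.341, edgeR adjusted p = 0.000447) and lower at 10 nM against 0.06 nM (log2 -1.45 ± 0.326, edgeR adjusted p = 0.00132), and at 10 nM it overlapped vehicle. The call at 0.03 nM (edgeR adjusted p = 0.0199) was lost without vehicle replicate 3 or 4 or 0.03 nM replicate 3 and by DESeq2, and the call at 0.1 nM (edgeR adjusted p = 0.0108) without vehicle replicate 4 or 0.1 nM replicate 2.

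**Figure D3:**
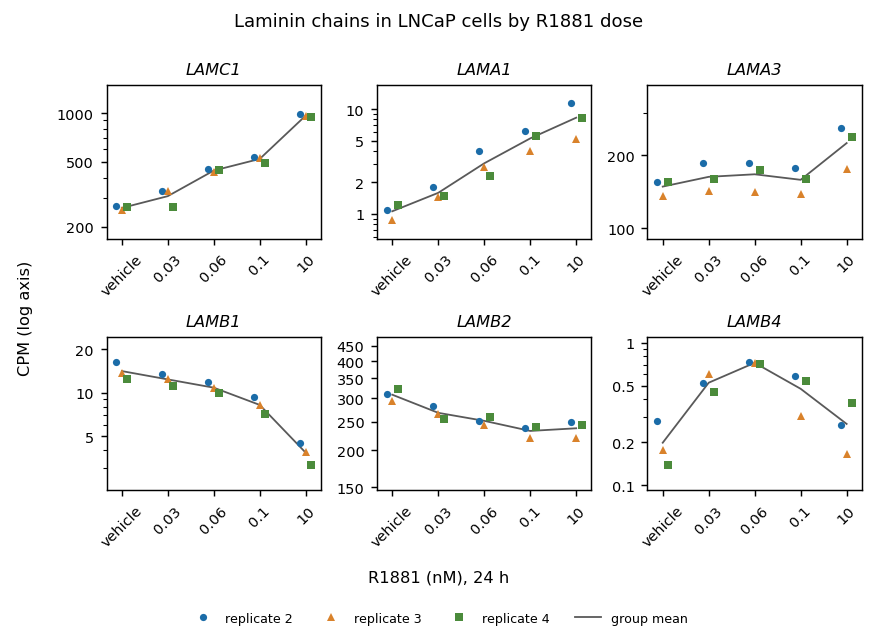
CPM (log axis) of 6 laminin chains by R1881 dose, 1 marker per library and a line through group means. LAMC1 and LAMA1 climb with dose, LAMB1 steps down, the LAMB2 means are 232 CPM at 0.1 nM and 237 CPM at 10 nM, LAMA3 stands out at 10 nM, and LAMB4 peaks at 0.06 nM.

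Collagen chains fell more often than they rose. Of the 24 tested at 10 nM against vehicle, 14 fell, 4 rose and 6 were not called, with a median log2 fold change of -0.95 against -0.0134 over all genes. The lower calls made up 58.3% of tested collagen chains against 28.3% of all genes, and the higher calls 16.7% against 29.3%. The 14 that fell were the fibril-forming chains COL1A1, COL3A1, COL5A1, COL5A2, COL24A1 and COL27A1, the fibril-associated chains COL9A2, COL9A3 and COL16A1, the network chains COL4A2 and COL8A2, the basement membrane collagen COL18A1, the transmembrane collagen COL13A1, and COL6A1 of the beaded filaments. The 4 that rose were COL4A5, COL4A6, COL12A1 and COL23A1.

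COL5A2 encodes the alpha-2 chain of type V collagen, which sits inside type I fibrils (ENSG00000204262.14, chromosome 2, 189031896 to 189225312, minus strand), and had the largest fall of all tested members. Its libraries held 22.1, 28.1 and 23.8 CPM in vehicle, 11.7, 13.1 and 12.3 CPM at 0.03 nM, 7.17, 9.68 and 9.31 CPM at 0.06 nM, 5.25, 6.21 and 4.72 CPM at 0.1 nM and 2.16, 2.87 and 1.99 CPM at 10 nM. No library of a dose overlapped those of the next. At 10 nM it was 10.4-fold lower than in vehicle (log2 -3.37 ± 0.148, edgeR adjusted p = 1.45e-12), and already lower at 0.03 nM (log2 -0.997 ± 0.125, edgeR adjusted p = 5.83e-05).

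COL5A1, the alpha-1 chain of the same trimer (ENSG00000130635.16, chromosome 9, 134641774 to 134844843, plus strand), fell along with it. It had 1.03, 0.833 and 0.883 CPM at 10 nM, against 5.98, 4.31 and 5.95 CPM in vehicle (5.94-fold lower, log2 -2.57 ± 0.217, edgeR adjusted p = 1.28e-08). Means were 3.27 CPM at 0.03 nM, 2.27 CPM at 0.06 nM and 2.02 CPM at 0.1 nM. The call at 0.03 nM (log2 -0.73, edgeR adjusted p = 0.0203) was lost without vehicle replicate 2 or 4 or 0.03 nM replicate 3 or 4 (edgeR adjusted p up to 0.114).

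COL3A1, the type III chain, lies tail to tail with COL5A2 on chromosome 2, 19149 bases apart, and both fell. COL3A1 had 0.343, 0.241 and 0.429 CPM at 10 nM against 1.67, 2.29 and 2.01 CPM in vehicle (log2 -2.58 ± 0.296, edgeR adjusted p = 6.79e-07). COL1A1, the main chain of type I collagen (ENSG00000108821.14, chromosome 17, 50183289 to 50201632, minus strand), changed less. Its libraries held 19.6, 16.1 and 18.6 CPM at 10 nM, against 34.7, 25.8 and 37.2 CPM in vehicle (log2 -0.85 ± 0.16, edgeR adjusted p = 0.000184). It was not called at 0.03 nM (edgeR adjusted p = 0.316), and was with the replicate block (edgeR adjusted p = 0.0026). The 10 nM call against 0.06 nM was lost by DESeq2 and without 0.06 nM replicate 2 or 4 or 10 nM replicate 3.

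Among the fibril-associated chains, COL16A1 fell 9.07-fold at 10 nM. It had 0.369, 0.407 and 0.379 CPM at 10 nM against 2.96, 3.95 and 3.69 CPM in vehicle (log2 -3.18 ± 0.275, edgeR adjusted p = 1.73e-08), with means of 2.26, 1.49 and 1.09 CPM at 0.03, 0.06 and 0.1 nM. At 0.03 nM COL16A1 was not called (edgeR adjusted p = 0.0719), and was with the replicate block (edgeR adjusted p = 0.00256) and without 0.06 nM replicate 3. COL9A2, a chain of the cartilage-type collagen IX (ENSG00000049089.15, chromosome 1, 40300487 to 40317813, minus strand), had 3.32, 2.7 and 3.08 CPM at 10 nM against 9.66, 8.64 and 11.7 CPM in vehicle (log2 -1.73 ± 0.126, edgeR adjusted p = 1.8e-09). Its partner chain COL9A3 fell by a similar log2 of -2.11 ± 0.25 (edgeR adjusted p = 1.04e-06). Exons of COL9A3 overlap TCFL5 on the opposite strand, which was itself lower at 10 nM (20.3 against 33.6 CPM). At 0.03 nM COL9A3 was called with the replicate block (edgeR adjusted p = 0.0118 against 0.236).

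COL18A1, whose C-terminal fragment is endostatin (ENSG00000182871.16, chromosome 21, 45405137 to 45513720, plus strand), fell at the upper doses. It had 20.7, 21.9 and 18.2 CPM at 10 nM, against 38.1, 46.1 and 42.4 CPM in vehicle (log2 -1.05 ± 0.0955, edgeR adjusted p = 3.23e-08). Called lower from 0.1 nM (log2 -0.39), it was also called at 0.03 nM with the replicate block (edgeR adjusted p = 0.00771 against 0.159) and without the low-count filter. At 0.06 nM (log2 -0.21, edgeR adjusted p = 0.0924) COL18A1 was called lower in several alternatives. These were the replicate block, library totals alone, no low-count filter, the compared groups alone and the fit without vehicle replicate 2. Exons of COL18A1 overlap SLC19A1 on the opposite strand, which was higher at 10 nM by log2 0.37. COL6A1, the most abundant collagen chain per kilobase (39.4 CPM per kb at 10 nM and 45.9 in vehicle), moved least among those called: 209, 208 and 214 CPM at 10 nM against 231, 255 and 249 CPM in vehicle (log2 -0.22 ± 0.0667, edgeR adjusted p = 0.00947). COL6A2, whose chain joins that of COL6A1 in type VI collagen, was not called at 10 nM (log2 -0.16, 95% interval -0.41 to 0.1, edgeR adjusted p = 0.286). With the replicate block it was called lower at every dose (edgeR adjusted p = 0.0379 at 0.03 nM, 0.00507 at 0.06 nM, 0.00029 at 0.1 nM and 0.0263 at 10 nM), and by library totals alone at 10 nM (edgeR adjusted p = 0.00792).

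The other falls were in low chains. COL27A1 averaged 0.807 CPM at 10 nM and 3.56 CPM in vehicle (log2 -2.15), and COL8A2 0.185 CPM at 10 nM and 1.12 CPM in vehicle (log2 -2.60). COL24A1 averaged 0.0843 CPM at 10 nM and 0.335 CPM in vehicle (log2 -1.97), and COL13A1 0.165 CPM at 10 nM and 0.467 CPM in vehicle (log2 -1.57). COL27A1 was already lower at 0.03 nM (log2 -0.86 ± 0.159, edgeR adjusted p = 0.00205). COL4A2, 1.25 ± 0.12 CPM at 10 nM and 1.62 ± 0.109 CPM in vehicle (SD, n = 3 each), was at the edge of the test (log2 -0.39, edgeR adjusted p = 0.0452). That call was lost by DESeq2, with RLE size factors and without vehicle replicate 3 or 4, 0.06 nM replicate 2, 0.1 nM replicate 2, or 10 nM replicate 2 or 3.

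COL12A1, a fibril-associated collagen, went against the other tested chains of its class (ENSG00000111799.22, chromosome 6, 75084326 to 75206051, minus strand). Its libraries held 16.4, 19.3 and 23.2 CPM at 10 nM, against 2.65, 3.71 and 3.95 CPM in vehicle (5.72-fold, log2 2.52 ± 0.174, edgeR adjusted p = 8.29e-10). Means were 4 CPM at 0.03 nM, 5.52 CPM at 0.06 nM and 8.19 CPM at 0.1 nM. The 0.06 nM call (log2 0.67, edgeR adjusted p = 0.0106) was lost without vehicle replicate 2 or 0.06 nM replicate 3 and without the libraries numbered 3. COL23A1, a transmembrane collagen, averaged 2.2 ± 0.172 CPM at 10 nM and 0.662 ± 0.0995 CPM in vehicle (SD, n = 3 each; log2 1.72 ± 0.206, edgeR adjusted p = 1.12e-06).

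**Figure D4:**
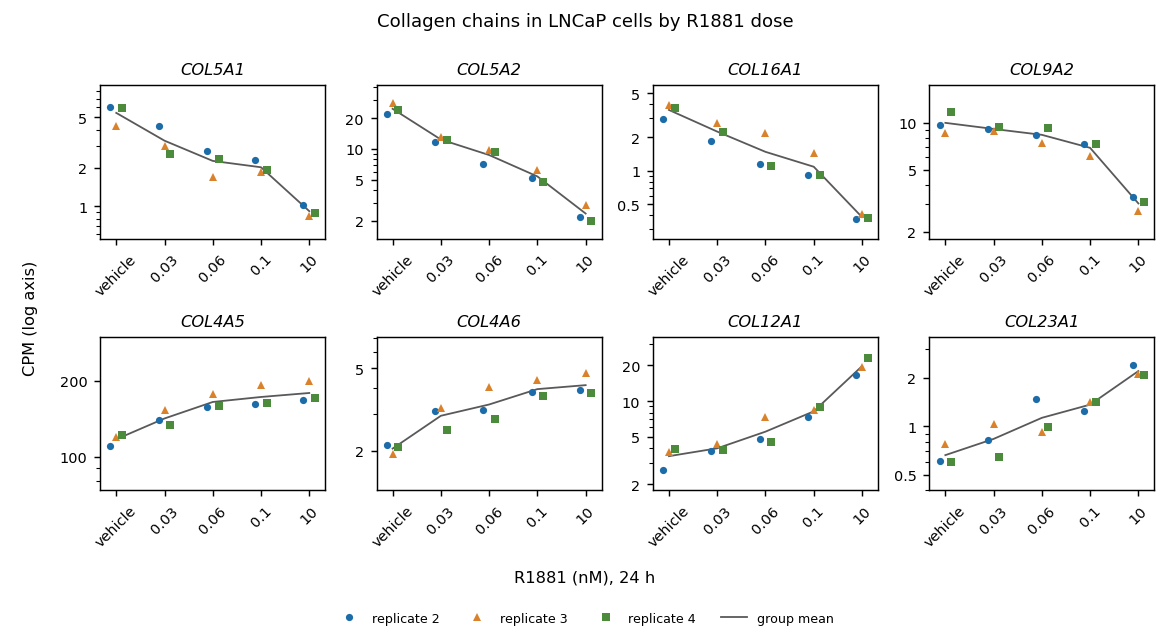
CPM (log axis) of 8 collagen chains by R1881 dose, 1 marker per library and a line through group means. COL5A1, COL5A2, COL16A1 and COL9A2 step down with dose, COL12A1 and COL23A1 climb to 10 nM, and all COL4A5 and COL4A6 libraries with R1881 lie above vehicle.

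The type IV chains COL4A5 and COL4A6, which assemble with each other in epithelial basement membranes, both rose, and were called at every dose. They lie head to head on chromosome X, with 346 bases between their annotated starts. COL4A5 (ENSG00000188153.14, chromosome X, 108439844 to 108697545, plus strand) had 167, 199 and 170.4 CPM at 10 nM, against 111, 120 and 122 CPM in vehicle (log2 0.61 ± 0.0798, edgeR adjusted p = 3.57e-06). Means were 142 CPM at 0.03 nM, 165 CPM at 0.06 nM and 172 CPM at 0.1 nM, and no library at any dose overlapped vehicle. COL4A6 (ENSG00000197565.16, chromosome X, 108155607 to 108439497, minus strand) had 3.9, 4.72 and 3.79 CPM at 10 nM, against 2.13, 1.93 and 2.08 CPM in vehicle (log2 1.02 ± 0.15, edgeR adjusted p = 1.31e-05). Its means at 0.03, 0.06 and 0.1 nM were 2.95, 3.34 and 3.96 CPM.

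Between 10 nM and 0.06 nM COL4A5 differed by log2 0.12 (95% interval -0.05 to 0.29, edgeR adjusted p = 0.244) and COL4A6 by log2 0.33 (0.02 to 0.63, edgeR adjusted p = 0.078). With the replicate block both were called higher at 10 nM (edgeR adjusted p = 0.0397 for COL4A5 and 0.025 for COL4A6), and by library totals alone COL4A5 was at log2 -0.06, without a call. The calls at 0.03 nM, log2 0.27 for COL4A5 and 0.52 for COL4A6 (edgeR adjusted p = 0.0418 and 0.0463), were lost without vehicle replicate 2, 3 or 4, 0.03 nM replicate 2 or 3, or 10 nM replicate 4. The COL4A6 call was also lost without 0.06 nM replicate 2, 0.1 nM replicate 2 or 4, or 10 nM replicate 2, and between 10 nM and 0.06 nM COL4A6 was called without 0.06 nM replicate 3. Per kilobase the levels were far apart, 15.1 CPM per kb for COL4A5 and 0.446 for COL4A6 at 10 nM, and 9.89 for COL4A5 and 0.221 for COL4A6 in vehicle. The other head-to-head type IV pairs gave no such pattern to compare, since COL4A1 and COL4A3 did not pass the filter.

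The promoter windows of COL4A5 and COL4A6 are shown because the genes moved together and share the stretch between them. Each runs 250 bases before to 50 bases after the annotated start (RefSeq, GRCh38.p14), is written in the direction of its own gene, and has CCAAT on either strand in capitals. COL4A5 lies at chrX:108439588-108439887 on the plus strand and COL4A6 at chrX:108439409-108439708 on the minus strand.
COL4A5: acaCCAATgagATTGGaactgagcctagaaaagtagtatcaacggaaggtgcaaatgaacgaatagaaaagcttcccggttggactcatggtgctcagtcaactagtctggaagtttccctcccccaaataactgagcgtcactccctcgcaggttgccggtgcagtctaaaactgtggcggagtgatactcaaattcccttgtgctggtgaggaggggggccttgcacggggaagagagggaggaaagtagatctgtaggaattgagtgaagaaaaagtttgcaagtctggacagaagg
COL4A6: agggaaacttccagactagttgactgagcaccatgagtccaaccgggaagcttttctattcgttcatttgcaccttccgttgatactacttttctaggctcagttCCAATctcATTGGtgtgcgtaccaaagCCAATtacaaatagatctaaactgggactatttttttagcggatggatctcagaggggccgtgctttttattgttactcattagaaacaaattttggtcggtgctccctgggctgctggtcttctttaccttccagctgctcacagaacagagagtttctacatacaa
The windows overlap by 121 bases, identical on opposite strands, and the shared stretch holds 2 CCAAT matches, 1 on each strand. COL4A6 has another window, at a start inside the gene, which holds none. CCAAT on either strand was present in 34.6% of the 35116 RefSeq promoter windows of this length.

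Of the 81 members 60 had a promoter entry, with 79 windows in all. The half-site of the androgen response element, AGAACA on either strand, was present in 1 of 16 windows of members higher at 10 nM (that of COL4A6 shown above), 2 of 19 windows of members lower, 6 of 20 of members not called and 2 of 24 of members not tested, against 14.8% of all windows. Windows of the same gene were counted separately. Both windows of lower members are overlapping windows of COL5A1 that hold the same match, and among members not called LAMB3 likewise gave 2 windows with the same match. The GC box GGGCGG was present in 10 of 16 windows of higher, 15 of 19 of lower, 11 of 20 of not called and 8 of 24 of not tested members, against 45% of all windows. These are letter matches in short windows and say nothing of binding.

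FN1 and THBS1 rose at low dose and came down at 10 nM. FN1 encodes fibronectin, which binds integrins of the ITGA5 and ITGAV chains (ENSG00000115414.21, chromosome 2, 215360440 to 215436172, minus strand). Its libraries held 381, 315 and 404 CPM in vehicle, 518, 413 and 437 CPM at 0.03 nM, 473, 394 and 529 CPM at 0.06 nM, 411, 315 and 384 CPM at 0.1 nM and 153, 121 and 129 CPM at 10 nM. Every 10 nM library lay below every other library, and the 0.06 nM and vehicle libraries overlapped.

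At 10 nM FN1 was 2.73-fold lower than in vehicle (log2 -1.45 ± 0.126, edgeR adjusted p = 1.92e-08) and 3.47-fold lower than at 0.06 nM (log2 -1.79 ± 0.127, edgeR adjusted p = 2.54e-09). The rise at 0.06 nM was at the edge of the test (log2 0.34 ± 0.123, edgeR adjusted p = 0.0406). The call was kept with the replicate block and without the libraries numbered 3. It was lost without vehicle replicate 2 or 3 or 0.06 nM replicate 2 or 4, by library totals alone (edgeR adjusted p = 0.0969) and by DESeq2 (adjusted p = 0.0749). At 0.03 nM the difference was log2 0.32 (edgeR adjusted p = 0.133), and with the replicate block it was called (edgeR adjusted p = 0.000686).

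THBS1 encodes thrombospondin-1, a secreted matrix protein known as an inhibitor of blood vessel growth (ENSG00000137801.11, chromosome 15, 39581079 to 39599466, plus strand). It had 2.81, 3.53 and 2.82 CPM in vehicle, 5.76, 7.01 and 5.23 CPM at 0.03 nM, 9.05, 10.4 and 9.94 CPM at 0.06 nM, 8.78, 10.5 and 8.67 CPM at 0.1 nM and 3.82, 4.54 and 3.91 CPM at 10 nM. The 0.06 and 0.1 nM libraries lay above all others, and the 10 nM libraries lay between vehicle and 0.03 nM without overlap.

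THBS1 was 3.2-fold higher at 0.06 nM than in vehicle (log2 1.68 ± 0.131, edgeR adjusted p = 4.33e-08) and 2.38-fold lower at 10 nM than at 0.06 nM (log2 -1.25 ± 0.127, edgeR adjusted p = 2.47e-07). Its remaining excess over vehicle at 10 nM (log2 0.43 ± 0.137, edgeR adjusted p = 0.0127) was lost without vehicle replicate 2 or 4 or 10 nM replicate 3, and by library totals alone (log2 0.22, edgeR adjusted p = 0.138).

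**Figure D5:**
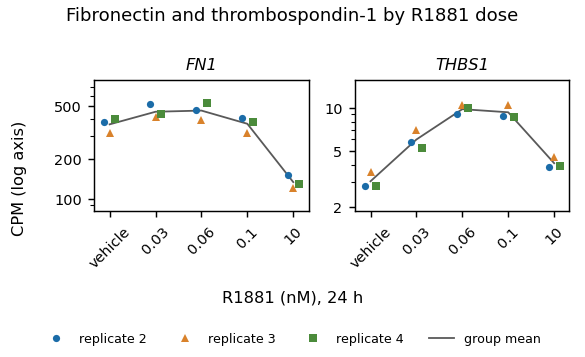
CPM (log axis) of FN1 and THBS1 by R1881 dose, 1 marker per library and a line through group means. FN1 stays between 315 and 529 CPM up to 0.1 nM and lies between 121 and 153 CPM at 10 nM, and THBS1 peaks between 9.05 and 10.4 CPM at 0.06 nM.

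LUM, lumican, a small proteoglycan that binds collagen fibrils, was barely present: 0, 0.074 and 0.151 CPM at 10 nM, against 0.493, 0.244 and 0.531 CPM in vehicle (log2 -2.42 ± 0.571, edgeR adjusted p = 0.00141). SPARC, a collagen-binding matrix protein, did not pass the filter, with 0.185, 0.167 and 0.177 CPM at 10 nM and 0.0938, 0.133 and 0.0231 CPM in vehicle. The other untested members with a group mean above 0.1 CPM were COL4A3, COL6A3, COL17A1, ITGA8, ITGAL and ITGB6.

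The cytoplasmic side of integrin adhesions changed in both directions. Of 37 tested genes of adhesion machinery 16 rose and 10 fell at 10 nM against vehicle, with a median log2 of 0.05 against -0.0134 over all genes. Over all genes 29.3% were called higher and 28.3% lower. VCL, vinculin, which links adhesions to actin, was at 445 ± 15.3 CPM at 10 nM and 182 ± 7.33 CPM in vehicle (SD, n = 3 each; log2 1.29). PARVA, parvin alpha, a partner of integrin-linked kinase, was at 46.3 ± 4.05 CPM at 10 nM and 20.2 ± 3.34 CPM in vehicle (log2 1.20), whereas TLN2, the second talin, was at 9.56 ± 0.631 CPM at 10 nM and 19.8 ± 1.82 CPM in vehicle (log2 -1.05). By library totals alone this list had 10 members higher and 18 lower.

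Most tested partners of the basement membrane fell. Of 12 tested, 9 fell and 1 (PXDN, a peroxidase that crosslinks collagen IV) rose at 10 nM, with a median log2 of -0.80. FRAS1, an anchoring protein of epithelial basement membranes, held 2.18 ± 0.443 CPM at 10 nM and 11.3 ± 2.35 CPM in vehicle (SD, n = 3 each; log2 -2.36). HSPG2, perlecan, fell by log2 -0.79 and FBLN2, fibulin-2, by log2 -0.68. Of 17 tested matrix receptors other than integrins 11 fell and 1 (HMMR, a hyaluronan-binding protein) rose, with a median log2 of -0.35. SDC4, a syndecan of focal adhesions, held 23.1 ± 1.89 CPM at 10 nM and 72.7 ± 3.6 CPM in vehicle (SD, n = 3 each; log2 -1.66), LRP1, an endocytic receptor, fell by log2 -1.24, and BCAM, a receptor for laminin alpha-5, by log2 -0.87. The share of all genes called in this comparison was 57.6%, with 29.3% higher and 28.3% lower. The lists were described by their counts without a test of the list. All list genes named here were called by edgeR.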

How the data were processed

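Counts per Ensembl gene were deposited by the authors as whole numbers, 1 column per LNCaP library, with totals of 30666460 to 61199483. Libraries came from a stranded mRNA kit, per the labels' protocols. Per the submitters' processing notes GRCh38 was the build, and the tools named are STAR 2.7.8a, Trimmomatic 0.39 and DESeq2 1.36.0; the read counter, annotation release and strand setting are not given in the sources used here. Another 15 columns of per-sample values, of VCaP cells, match no label and were not used. Symbols were looked up by gene ID for 37732 of 37843 IDs, and positions are those of GENCODE 29. Of the 81 members, 8 share exon sequence with a gene on the same strand and 29 with one on the opposite strand.

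Testing was done with edgeR 4.0.16 (R 4.3.3): filterByExpr left 18403 genes, which after TMM scaling were fitted in 1 quasi-likelihood model of all 15 libraries with a mean per group. Tests were two-sided, and Benjamini-Hochberg adjusted p-values over all tested genes were called under 0.05. Log2 fold changes have standard errors, and 95% intervals come from the same fit. The procedure was tested on simulated data. There few genes changed and same-numbered libraries did not deviate together, so wide shifts between groups and a pairing were not covered. The rule for members described with values took called members with a mean of at least 5 CPM in a group, up to the 25 with the largest changes at 10 nM, those with opposite calls, and ITGA6, ITGB4, ITGB1, LAMB1, FN1, THBS1, SPARC and LUM. For each other list it took the 3 called genes with the largest changes and at least 5 CPM. Values of further members, such as COL4A6, COL3A1, COL16A1 and COL23A1, and of PXDN and HMMR were chosen after they were seen. Members and lists were chosen with earlier results of these data known.

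The alternatives were library totals, RLE size factors, DESeq2 1.42.0, no filter or a stricter one, a replicate block, a fit of the compared groups alone, and fits without 1 library or without the 5 numbered 3. Their use on the gene lists was added after seeing the data. Same-numbered libraries deviated together in the comparisons with vehicle of 0.03 nM (correlations of 0.155, 0.296 and 0.164) and 0.1 nM (0.179, 0.287 and 0.151). The correlations in the other comparisons were lower in part, and all were positive. These values hint at a pairing by number, read from the data and not stated in the labels. The main fit did not use this pairing, and among the alternatives only the replicate block did. A member not called in the main fit can therefore be called with the block. Errors are the spread between these libraries.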

Additional observations from a re-analysis of the deposited data

How the results depend on the processing

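No tested member reversed its direction with a call under any alternative. Calls held in every alternative that tested the member for 4 of 11 members at 0.03 nM, 16 of 21 at 0.06 nM, 25 of 31 at 0.1 nM, 34 of 38 at 10 nM and 29 of 35 for 10 nM against 0.06 nM. Fits without 1 library called between 4 and 12 members at 0.03 nM, between 18 and 23 at 0.06 nM, between 26 and 32 at 0.1 nM, between 37 and 40 at 10 nM, and between 33 and 36 for 10 nM against 0.06 nM, with 2 or 3 opposite calls. With the replicate block 20 members were called at 0.03 nM and 6 had opposite calls, adding ITGA6, ITGB1 and COL26A1; the cause was not tested. The block gave 31 calls at 0.06 nM, 34 at 0.1 nM, 43 at 10 nM and 40 between 10 nM and 0.06 nM. Outside the comparisons of 0.03 and 0.1 nM with vehicle, the lowest correlation of same-numbered libraries was 0.099 for 0.06 nM and 0.066 for 10 nM with vehicle and 0.095 for 10 nM with 0.06 nM, each below the 0.1 set for taking the numbers as pairs. All correlations were positive, and as a hint from the data 15 of 15 libraries correlated best with their own number. Library totals alone shifted the median log2 of all genes to -0.223 at 10 nM against vehicle and -0.206 against 0.06 nM, where 7 members were higher and 31 lower. The list of adhesion machinery then had 10 higher and 18 lower, and that of collagen folding 5 higher and 16 lower. DESeq2 called 10, 19, 28, 39 and 36 members in the order of comparisons above. For the alternatives, here and above, the share of all genes called is not given. Their counts of members and list genes therefore describe those genes alone. Depth limits the 28 members with group means of at most 0.391 CPM, which were not tested.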

Other observations

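Of 25 tested genes that fold, secrete and crosslink collagen, 8 were higher and 10 lower at 10 nM against vehicle by edgeR, with a median log2 of -0.08; of all genes 29.3% were higher and 28.3% lower. By library totals alone 5 were higher and 16 lower. PPIB, a prolyl isomerase that helps collagen fold in the endoplasmic reticulum, was at 736 ± 49 CPM at 10 nM and 375 ± 16.3 CPM in vehicle (SD, n = 3 each; log2 0.97). TMEM38B, an ion channel of that compartment needed for collagen processing, was at 30.2 ± 4.64 CPM at 10 nM and 113 ± 4.85 CPM in vehicle (log2 -1.90). BMP1, the protease that trims fibrillar procollagens, was at 10.4 ± 1.23 CPM at 10 nM and 20.7 ± 1.01 CPM in vehicle (log2 -0.99).

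Among 20 tested matrix proteases and their inhibitors, 4 were higher and 10 lower at 10 nM against vehicle, with a median log2 of -0.35. MMP16, a membrane-bound metalloproteinase, was at 72.1 ± 9.21 CPM at 10 nM and 343 ± 35.5 CPM in vehicle (SD, n = 3 each; log2 -2.25). TIMP2, an inhibitor of such enzymes, was at 24 ± 2.7 CPM at 10 nM and 91.9 ± 6.34 CPM in vehicle (log2 -1.93). MMP24, another membrane-bound metalloproteinase, was at 1.94 ± 0.4 CPM at 10 nM and 7.1 ± 0.461 CPM in vehicle (log2 -1.85). The share of all genes called in this comparison was 57.6%, with 29.3% higher and 28.3% lower.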
